A study of Mus musculus with 6 samples.

Results

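The Nduf genes of the mouse, which encode nuclear subunits and assembly factors of mitochondrial complex I, were followed in cells of day 5 embryoid bodies sorted by nuclear redox state. Members were all rows of the deposited gene table whose gene name starts with Nduf and does not contain -ps, which gave 48 of 31265 genes. By role, 36 of them encode structural subunits of complex I, 8 are assembly factors, 2 (Ndufa4 and Ndufa4l2) are relatives of complex IV that share the name, and 2 (Ndufb4c and Ndufs6b) are annotated as processed pseudogenes. The name alone chose them, and no measured value entered the choice.

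Oxidized cells (D5_ox) were the 10% with the most oxidized nuclear sensor, and reduced cells (D5_red) were the 10% with the most reduced one, both from wild-type E14Tg2a cells at day 5. Each of 3 populations, A, B and C, gave 1 oxidized and 1 reduced library, so there were 6 libraries of poly(A) RNA. All cells expressed nuclear Grx1-roGFP2, a sensor whose fluorescence follows glutathione oxidation, and all had been kept in serum with LIF and 2i before embryoid bodies formed in hanging drops without LIF and 2i. The serum medium of both groups held beta-mercaptoethanol, a reducing agent, and propidium iodide had been used to gate out dead cells before the sort. The sensor was read in the nucleus, so the sort did not measure the redox state of mitochondria. E14Tg2a is 1 line, and whether a population was a clone, a culture or a day is not stated, so the p-values describe variation among libraries of these 3 populations. The main test treated the 6 libraries as independent, and the pairing within a population entered only in an alternative run.

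Complex I oxidizes NADH in the mitochondrial matrix, passes the electrons along iron-sulfur clusters to ubiquinone and pumps protons across the inner membrane. Its core subunits carry the catalytic steps and are shared with bacteria. The N module takes up NADH, the Q module reduces ubiquinone, and the proximal and distal membrane arms pump protons around mitochondrially encoded ND subunits. Supernumerary subunits surround this core, and assembly factors help to build the enzyme without staying in it. In pluripotent cells glycolysis is prominent, and respiration increases as cells differentiate. The enzyme is also a known source of superoxide.

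Values are in FPKM, which divides a gene's fragments by transcript length and library total, so levels can be set side by side between genes. Estimated depth was 1.18e+07 to 1.80e+07 fragments per library, and population C had the shallowest library of each group. Between 11911 and 12404 genes reached 1 FPKM. Oxidized A and B stood apart from the other 4 libraries in abundant transcripts: 2 rows of a ribosomal RNA locus (CT010467) summed to 1798 and 2357 FPKM in them and to between 41528 and 52117 FPKM elsewhere. The 13 mitochondrially encoded mRNAs summed to 7348, 5160 and 2994 FPKM in oxidized A to C, and to 2324, 3917 and 3635 FPKM in reduced A to C. Markers of pluripotent cells (5 of 5 above 1 FPKM, among them Pou5f1) summed to between 664 and 1794 FPKM in oxidized libraries, with C the lowest, and to between 1987 and 2127 FPKM in reduced libraries. Most of this sum was Dppa5a, and single markers did not share its order: Nanog was higher in oxidized A and B than in reduced A and B, and Utf1 was higher in oxidized B than in reduced B. The 4 mesoderm markers summed to between 140 and 203 FPKM in oxidized libraries and to between 87.5 and 122 FPKM in reduced libraries, a sum that is mostly Hand1. T and Mesp1, the early mesoderm markers among them, were lower in oxidized cells of every population (T at 3.47 to 5.59 FPKM in oxidized against 14.5 to 15.0 FPKM in reduced libraries). Sums of endoderm (4.61 to 8.95 against 1.67 to 2.83 FPKM), neuroectoderm (at least 3.33 against at most 2.54 FPKM) and fibroblast markers (16.0 to 36.4 against 7.60 to 15.0 FPKM) were higher in oxidized than in reduced libraries, and that of endothelial markers was lower (4.21 to 4.43 against 5.47 to 7.01 FPKM). The neuroectoderm and endothelial sums were mostly Nes and Pecam1, and single markers did not all share the direction of their sum. Sox17 and Pax6 were lower in oxidized C than in reduced C, and Afp and Col1a1 were lower in oxidized A than in reduced A. Cdh5 was higher in oxidized B and C than in reduced B and C. Afp and Pax6 were below 1 FPKM in every library. Primitive blood markers were high in both libraries of population C, at 580 FPKM in oxidized C and 589 FPKM in reduced C, and Ptprc, which marks white blood cells, was listed at 0 in all 6. These measures move with several results given next, and their part in those results was not tested.

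No Nduf gene passed the test between oxidized and reduced cells. With limma on log2(FPKM + 1), adjusted over 12191 tested genes, adjusted p-values of the 48 members ran from 0.140 (Ndufa3) to 0.962 (Ndufaf5). Among all genes tested, 0.796% passed, 0.517% with the higher level in oxidized cells and 0.279% with the lower. At an unadjusted p under 0.05 there were 8 members (16.7%; 6 higher and 2 lower in oxidized cells), against 19.4% of all genes tested (13.5% higher and 5.93% lower). In the authors' deposited table no member had a q under 0.05, against 5.51% of the genes tested, and the smallest q was 0.0644 (Ndufaf4).

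The levels of most members were higher in oxidized than in reduced cells of populations A and B, and those of most members were not in population C; these contrasts between populations were not tested. The oxidized minus reduced log2 difference was positive for 38 of 48 members (79.2%), against 59.3% of all genes tested. Its median was 0.21 over the members and 0.08 over all genes. The members' median was 0.11 without reduced B, 0.14 without oxidized A, 0.11 without oxidized A and B together, 0.32 without reduced C and 0.12 under median-ratio scaling. Within population A, 43 of 48 members had a positive difference, with a median of 0.46, where 58.2% of all genes were positive and their median was 0.09. Within population B, 36 members were positive with a median of 0.27, where 60.3% of all genes were positive and their median was 0.14. Within population C, 14 members were positive and the median was -0.10, where 50% of all genes were positive. A positive difference in all 3 populations occurred for 12 members, and for 26.9% of all genes. Groups that did not overlap, with oxidized cells higher, occurred for 8 members (16.7%), close to the 16.2% of all genes. In these bulk libraries fewer cells of a type and less RNA per cell cannot be told apart.

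**Figure D1:**
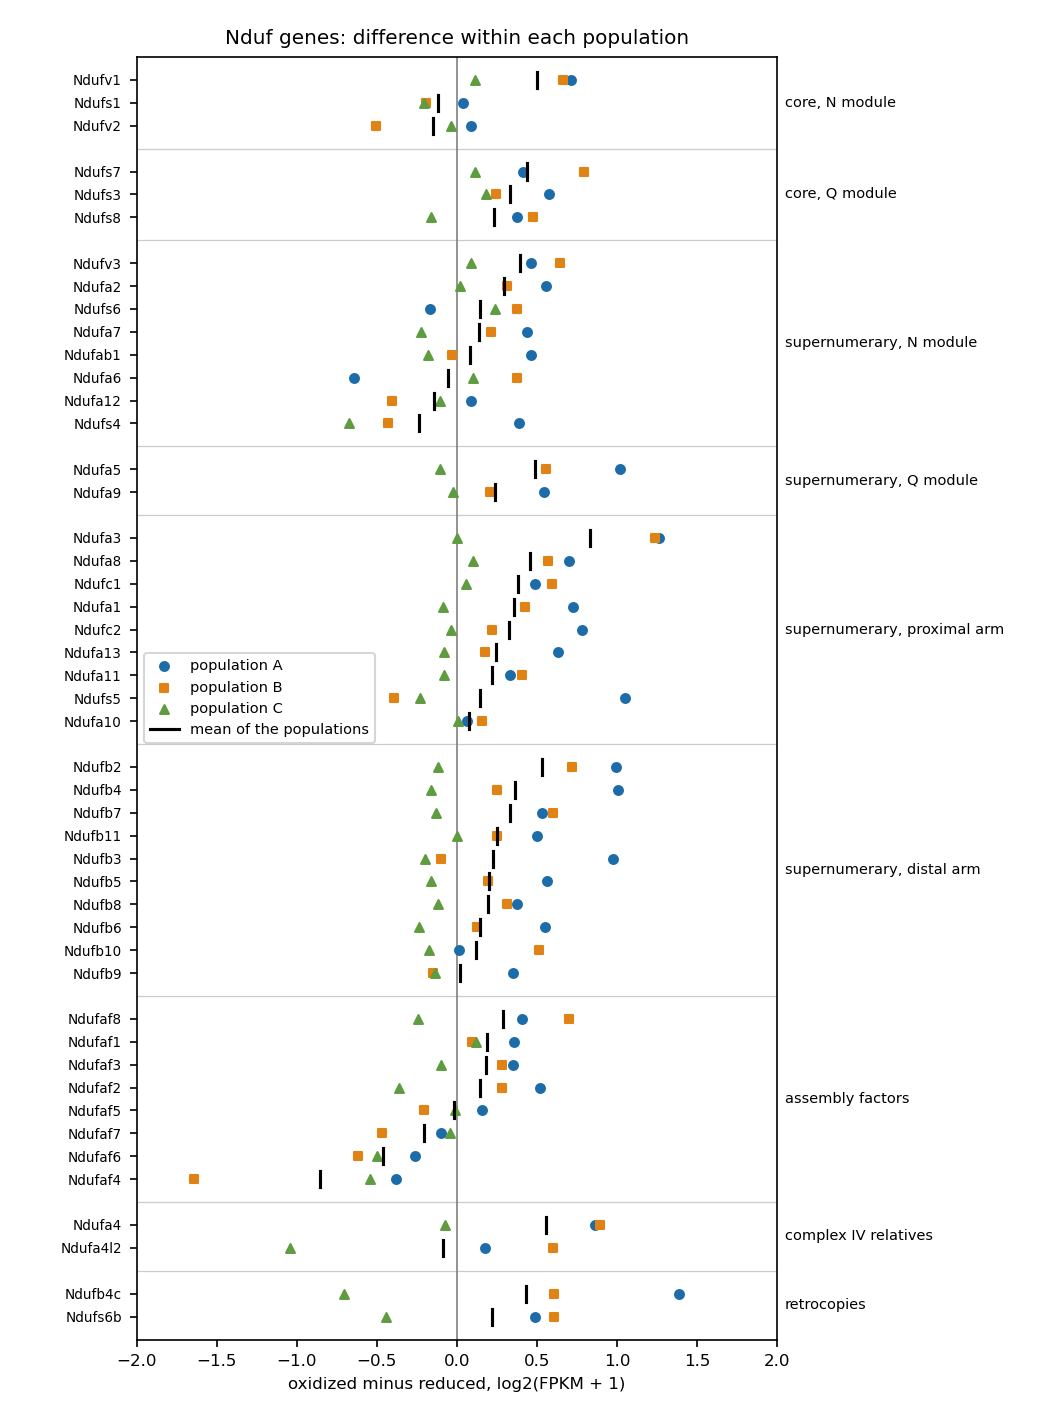
The log2 difference (oxidized minus reduced, log2(FPKM + 1), horizontal axis) of 47 of the Nduf genes is plotted for populations A, B and C, grouped by role, with a bar at the mean of the 3 populations. Points of population A and B lie mostly right of 0 (of all 48 members, 43 and 36 are positive), and those of population C lie mostly left of it (14 of 48 are positive).

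One library of each group carried the extremes. Oxidized A had the highest level of the 6 libraries for 33 of 48 members (68.8%), against 18.5% of all genes tested. Reduced B had the lowest level for 27 members (56.2%), against 25.5% of all genes, and reduced A had the lowest for 10 members. Oxidized C was highest for 1 member, against 14.4% of all genes. Oxidized B was highest for 2 members (4.17%, against 29.2% of all genes) and lowest for 7 (14.6%, against 12.3%).

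Summed over the 36 structural subunits, the level was 3384, 2630 and 2857 FPKM in oxidized A to C, and 2460, 2231 and 2971 FPKM in reduced A to C. The oxidized to reduced ratio of this sum was 1.38 in population A, 1.18 in population B and 0.962 in population C, so the groups overlap and the populations do not share a direction. The 8 assembly factors summed to 154, 123 and 136 FPKM in oxidized A to C, and to 142, 144 and 162 FPKM in reduced A to C, with ratios of 1.09, 0.857 and 0.838. The sum of the assembly factors was thus lower in oxidized cells of B and C, and that of the subunits was lower in those of C alone. Much of the difference in the assembly factor sum in B and C was that of Ndufaf6. This gene had 34.2 and 36.0 FPKM in oxidized B and C against 53.0 and 51.3 FPKM in reduced B and C. Of the 8 factors, 4 had a positive log2 difference.

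**Figure D2:**
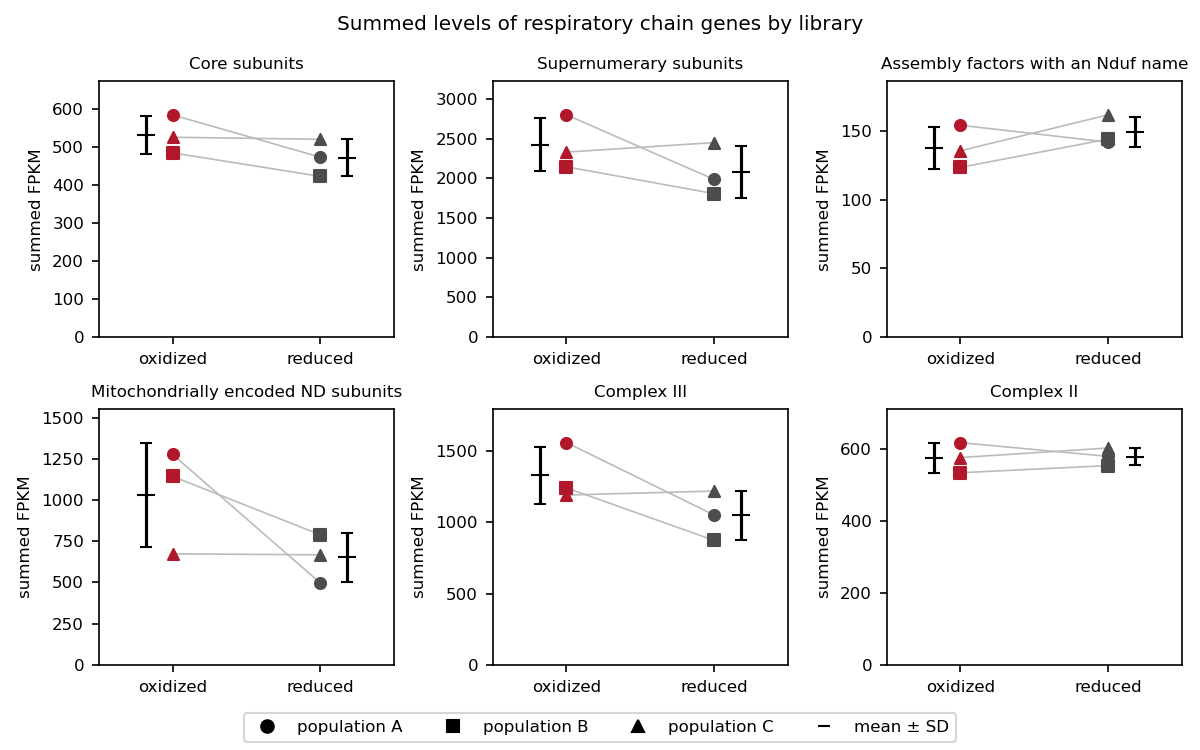
Summed FPKM (vertical axes, from 0) of core subunits, supernumerary subunits, Nduf assembly factors, mitochondrially encoded ND subunits, complex III and complex II is shown for each oxidized (left) and reduced (right) library, with lines joining a population and mean ± SD (n = 3) beside the points. For the subunits of complexes I and III the lines of A and B slope down to the right, and that of C is close to level, as for the ND subunits.

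Among the core subunits of the N module, Ndufv1 stood apart from its partners. Ndufv1 binds NADH and the flavin that accepts its electrons (chr19:4007384-4012806, GRCm38). It had 53.2, 48.2 and 34.4 FPKM in oxidized A to C, and 32.1, 30.0 and 31.6 FPKM in reduced A to C. All 3 oxidized libraries were above all 3 reduced ones, by little in population C. The log2 difference was 0.50 (SE 0.19, limma adjusted p = 0.200), and without oxidized C it was 0.68 (adjusted p = 0.0346), in a fit in which 9.72% of all genes passed. Ndufs1, the largest iron-sulfur subunit, averaged 14.8 ± 1.60 FPKM in oxidized against 16.2 ± 1.99 FPKM in reduced cells (SD, n = 3 each). Ndufv2, an iron-sulfur protein beside Ndufv1, had 120, 83.8 and 120 FPKM in oxidized A to C, and 113, 119 and 123 FPKM in reduced A to C. The groups overlapped for both, with log2 differences of -0.12 (SE 0.16) for Ndufs1 and -0.15 (SE 0.18) for Ndufv2, and only oxidized B was low for Ndufv2.

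All 4 core subunits of the Q module had a positive log2 difference (median 0.28). Ndufs7, which holds the iron-sulfur cluster next to ubiquinone, had 132, 115 and 123 FPKM in oxidized A to C, and 98.7, 65.5 and 113 FPKM in reduced A to C. The groups did not overlap, but oxidized B and reduced C were nearly equal (log2 difference 0.44, SE 0.21, limma adjusted p = 0.2995). Ndufs3, a scaffold of the module, had 59.7, 45.3 and 47.0 FPKM in oxidized A to C, and 39.7, 38.1 and 41.2 FPKM in reduced A to C. These groups did not overlap either (log2 difference 0.33, SE 0.16, limma adjusted p = 0.294), although 25.4% of the sequence stretches of Ndufs3 occur in other genes. Ndufs8, an iron-sulfur subunit, had 79.3, 70.7 and 75.9 FPKM in oxidized A to C, and 60.7, 50.4 and 85.0 FPKM in reduced A to C. Its highest value was in reduced C, so the groups overlapped.

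**Figure D3:**
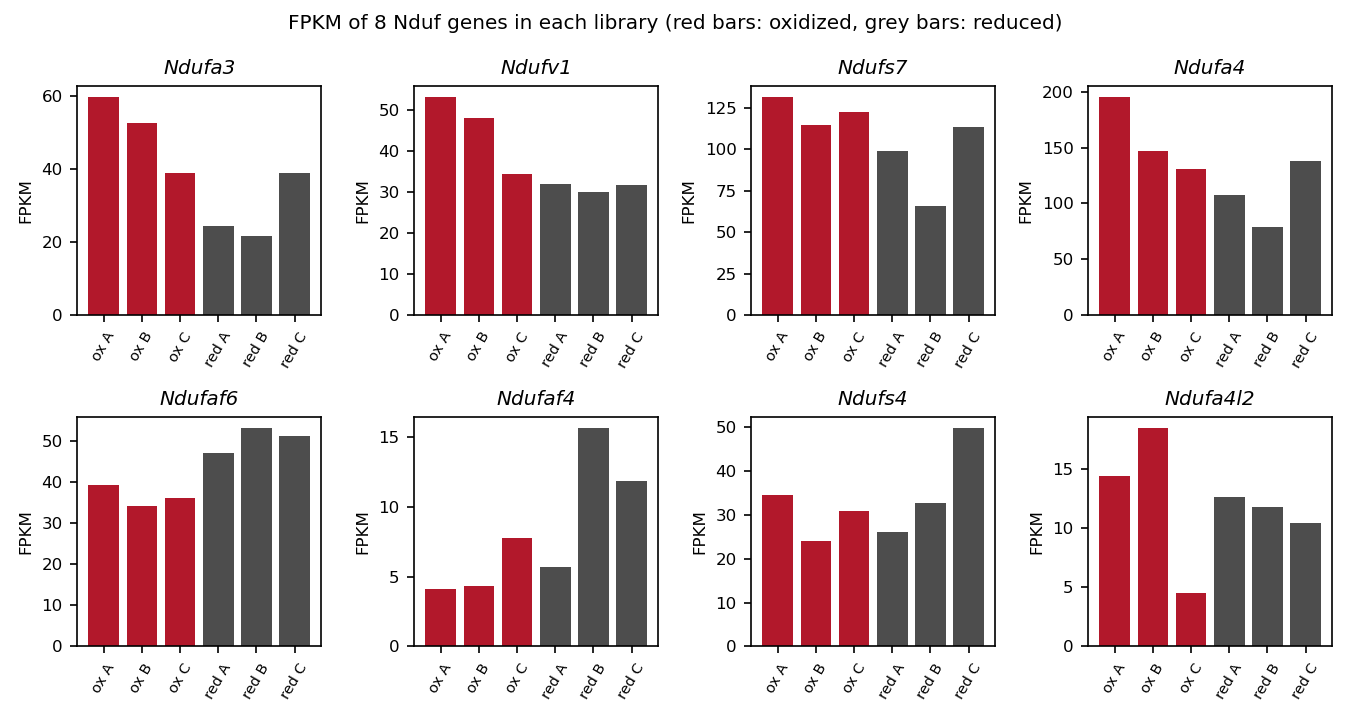
FPKM (vertical axes, from 0) of 8 Nduf genes is plotted by library, oxidized A, B and C left and reduced A, B and C right. Ndufa3, Ndufv1, Ndufs7 and Ndufa4 are higher in oxidized A and B than in reduced A and B, Ndufaf6 is at 34.2 to 39.2 FPKM in oxidized and 47.1 to 53.0 FPKM in reduced libraries, and Ndufaf4, Ndufs4 and Ndufa4l2 overlap.

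Of the 29 supernumerary subunits, 26 had a positive difference. The 9 of the proximal membrane arm and the 10 of the distal arm were all positive, with medians of 0.32 and 0.21, whereas 5 of the 8 of the N module were positive with a median of 0.11. Of all genes tested, 59.3% were positive, and these differences between modules were not tested. The median longest transcript was 861, 940 and 1264 bases in the proximal, distal and N module lists. Within population C, 4 of 9 proximal, 1 of 10 distal and 4 of 8 N module subunits were positive, against 50% of all genes tested. Ndufa5 and Ndufa9 of the Q module were positive in A and B and negative in C.

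Ndufa3, a small membrane subunit of the proximal arm (chr7:3617373-3620327, GRCm38), had the largest positive difference of all members. It had 59.7, 52.6 and 38.9 FPKM in oxidized A to C, and 24.3, 21.7 and 38.9 FPKM in reduced A to C. Oxidized A and B were the highest libraries, whereas both libraries of population C lay at the same level. The log2 difference was 0.84 (SE 0.25, 95% interval 0.27 to 1.40, limma adjusted p = 0.140). Without oxidized C it was 1.01 (adjusted p = 0.0354), in the fit in which 9.72% of all genes passed. None of the sequence stretches of Ndufa3 occurs in another gene.

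Among the supernumerary subunits the next largest positive differences were those of Ndufb2, Ndufa5 and Ndufa8. Ndufb2, a distal membrane arm subunit, had 17.8, 13.6 and 10.2 FPKM in oxidized A to C, and 8.44, 7.88 and 11.1 FPKM in reduced A to C (log2 difference 0.53, SE 0.22, limma adjusted p = 0.237). Ndufa5, in the Q module, had 61.9, 55.7 and 54.2 FPKM in oxidized A to C, and 30.0, 37.6 and 58.3 FPKM in reduced A to C (log2 difference 0.49, SE 0.23, limma adjusted p = 0.290). In both genes reduced C overlapped the oxidized libraries. Ndufa8, a subunit on the intermembrane side, had 132, 106 and 98.5 FPKM in oxidized A to C, and 80.9, 71.2 and 91.5 FPKM in reduced A to C. Its groups did not overlap (log2 difference 0.46, SE 0.18, limma adjusted p = 0.209). Ndufc1 and Ndufv3 did not overlap either, with log2 differences of 0.38 and 0.40 and limma adjusted p-values of 0.233 and 0.274.

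At the other end, Ndufs4, whose loss in mice causes a mitochondrial encephalopathy, had 34.6, 24.0 and 30.7 FPKM in oxidized A to C, and 26.1, 32.7 and 49.6 FPKM in reduced A to C. Reduced C was its highest library, and the log2 difference of -0.24 (SE 0.25) was 0.01 without that library. Ndufa6 had 33.9, 42.6 and 41.0 FPKM in oxidized A to C, and 53.5, 32.6 and 38.1 FPKM in reduced A to C. This LYR-motif subunit, which binds the acyl carrier protein Ndufab1, was the reverse of most members in population A, with its highest level in reduced A (log2 difference -0.05, SE 0.21). Ndufab1 itself had 26.0, 21.6 and 20.5 FPKM in oxidized A to C, and 18.5, 22.0 and 23.3 FPKM in reduced A to C. Its log2 difference of 0.09 (SE 0.16) was between -0.049 and -0.0046 under median-ratio scaling, quantile normalization or removal of a length trend, and without oxidized A and B.

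The most abundant members, each row taken alone, were Ndufa2, Ndufb9, Ndufb6 and Ndufa1, with means over the 6 libraries of 205, 194, 179 and 158 FPKM. This ranking depends on how fragments shared with near-identical copies were assigned. Summed with its copy, Ndufa12 was at 241 to 401 FPKM and Ndufs5 at 143 to 226 FPKM. Ndufa2, a thioredoxin-like subunit at the edge of the N module, had 253, 174 and 246 FPKM in oxidized A to C, and 172, 140 and 243 FPKM in reduced A to C. Ndufa1, needed early in building the membrane arm, had 211, 149 and 170 FPKM in oxidized A to C, and 127, 111 and 181 FPKM in reduced A to C. For both genes the within-population difference was largest in A, and reduced C overlapped the oxidized libraries. Ndufb9, the other LYR-motif subunit, averaged 197 ± 44.5 FPKM in oxidized against 192 ± 20.7 FPKM in reduced cells, and Ndufb6 averaged 188 ± 39.6 and 169 ± 29.6 FPKM (SD, n = 3 each). Their log2 differences were 0.02 and 0.15, and that of Ndufb9 was negative, -0.07 to -0.12, under either rescaling or with the length trend removed. Of Ndufb6, 39.0% of exon bases overlap Smim27 on the other strand, and the use of strand in counting is not given. Of Ndufb9, 19.5% of exon bases overlap Gm49356 on the same strand.

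Of the assembly factors, whose roles were worked out largely in human cells, 4 had a positive and 4 a negative difference. Lower in oxidized cells of all 3 populations were Ndufaf4, Ndufaf6 and Ndufaf7, 3 of the 48 members (6.25%, against 16.4% of all genes tested). Ndufaf6, which acts in early building of the Q module and the ND1 part (chr4:11051045-11076205, GRCm38), had 39.2, 34.2 and 36.0 FPKM in oxidized A to C, and 47.1, 53.0 and 51.3 FPKM in reduced A to C. Every reduced library was above every oxidized one, the only member with this order (2.08%, against 8.81% of all genes). Its log2 difference was -0.46 (SE 0.15, 95% interval -0.79 to -0.13, limma adjusted p = 0.152), and it lay between -0.55 and -0.41 under every alternative run. None of its sequence stretches occurs in another gene.

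Ndufaf4, a partner of Ndufaf3 in building the Q module (chr4:24898083-24905001, GRCm38), had 4.13, 4.31 and 7.78 FPKM in oxidized A to C, and 5.69, 15.6 and 11.8 FPKM in reduced A to C. Reduced B was the highest library and reduced A lay within the oxidized range. The log2 difference was -0.86 (SE 0.34, 95% interval -1.64 to -0.07, limma adjusted p = 0.226), the lowest of all members. Ndufaf3 itself had 19.7, 17.6 and 18.5 FPKM in oxidized A to C, and 15.2, 14.3 and 19.8 FPKM in reduced A to C, and so did not share the order of Ndufaf4. Ndufaf7, an arginine methyltransferase, had 12.8, 10.9 and 11.7 FPKM in oxidized A to C, and 13.7, 15.5 and 12.1 FPKM in reduced A to C. Its groups overlapped by 1 pair of libraries, oxidized A and reduced C (log2 difference -0.20, SE 0.16).

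Ndufaf1, part of the complex that assembles the proximal membrane arm, had 23.6, 19.4 and 20.7 FPKM in oxidized A to C, and 18.2, 18.1 and 19.0 FPKM in reduced A to C. The groups did not overlap, with a log2 difference of 0.19 (SE 0.15, limma adjusted p = 0.496). Ndufaf5, which hydroxylates Ndufs7, averaged 9.38 ± 1.76 FPKM in oxidized against 9.42 ± 0.598 FPKM in reduced cells (SD, n = 3 each). Its partner Ndufaf8 averaged 29.9 ± 6.17 and 25.2 ± 9.28 FPKM. Ndufaf2, a paralogue of Ndufa12 that acts late, averaged 4.91 ± 1.37 FPKM in oxidized against 4.34 ± 1.22 FPKM in reduced cells, with 65.1% of its sequence stretches shared with a neighbouring transcript, B230220B15Rik. These 3 overlapped between the groups.

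Ndufa4, first described in complex I and now placed in complex IV, had 195, 147 and 130 FPKM in oxidized A to C, and 107, 78.7 and 138 FPKM in reduced A to C. It was higher in oxidized A and B than in any reduced library, and in population C the 2 libraries were nearly equal (log2 difference 0.56, SE 0.24, limma adjusted p = 0.248). Ndufa4l2, a paralogue known as a hypoxia-inducible gene, had 14.4, 18.4 and 4.54 FPKM in oxidized A to C, and 12.6, 11.8 and 10.4 FPKM in reduced A to C. Oxidized C was far below the other 5 libraries, and the log2 difference of -0.09 (SE 0.40) was 0.46 without oxidized C.

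Several members have a retrotransposed copy elsewhere in the genome that is nearly identical and was counted as its own row. The level of such a member depends on how fragments that match both were assigned, a setting not given here. The sequences shown are coding stretches of Ndufa12 and Ndufs5 beside their copies, from GENCODE vM21 transcripts, with capitals at the bases that differ. Ndufa12-ps lies at chr5:130188395-130188796 on the plus strand and matched Ndufa12 at 400 of 402 bases (99.5%). Ndufs5-ps lies at chr16:42955631-42955949 on the plus strand and matched Ndufs5 at 317 of 319 bases (99.4%). The stretches are coding bases 76 to 135 of Ndufa12 and 46 to 105 of Ndufs5, and chr5:130188434-130188493 and chr16:42955676-42955735 of the copies.
Ndufa12: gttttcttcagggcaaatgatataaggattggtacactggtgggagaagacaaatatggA
Ndufa12-ps: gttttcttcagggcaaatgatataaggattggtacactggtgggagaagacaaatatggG
Ndufs5: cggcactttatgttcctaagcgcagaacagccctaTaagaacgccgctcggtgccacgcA
Ndufs5-ps: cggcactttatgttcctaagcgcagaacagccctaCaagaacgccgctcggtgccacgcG

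The copies carried most of the assigned signal in both pairs. Ndufa12, a late-added N module subunit, had 51.7, 33.1 and 52.5 FPKM in oxidized A to C, and 48.6, 44.2 and 56.7 FPKM in reduced A to C. Its copy had 267, 208 and 348 FPKM in oxidized A to C, and 211, 202 and 316 FPKM in reduced A to C, which is 81.3% to 86.9% of the summed level. The log2 difference was -0.14 for Ndufa12 alone and 0.12 for the sum of the pair, so its sign depends on whether the copy is added. Ndufs5, in the proximal arm, had 51.1, 24.6 and 30.98 FPKM in oxidized A to C, and 24.2, 32.7 and 36.5 FPKM in reduced A to C, and its copy held 76.9% to 85.8% of the sum. For Ndufs5 alone the difference within population A was 1.05, and for the sum of the pair it was 0.62. Ndufab1-ps held 43.0% to 57.0% of the sum with Ndufab1, whose log2 difference was 0.09 alone and 0.27 with the copy. Ndufb4c, all of whose sequence stretches occur in Ndufb4, had 13.6, 9.94 and 4.91 FPKM in oxidized A to C, and 4.57, 6.19 and 8.62 FPKM in reduced A to C, and its differences had the sign of those of its parent in each population. Ndufs6b was at 1.78 to 5.94 FPKM in all libraries.

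**Figure D4:**
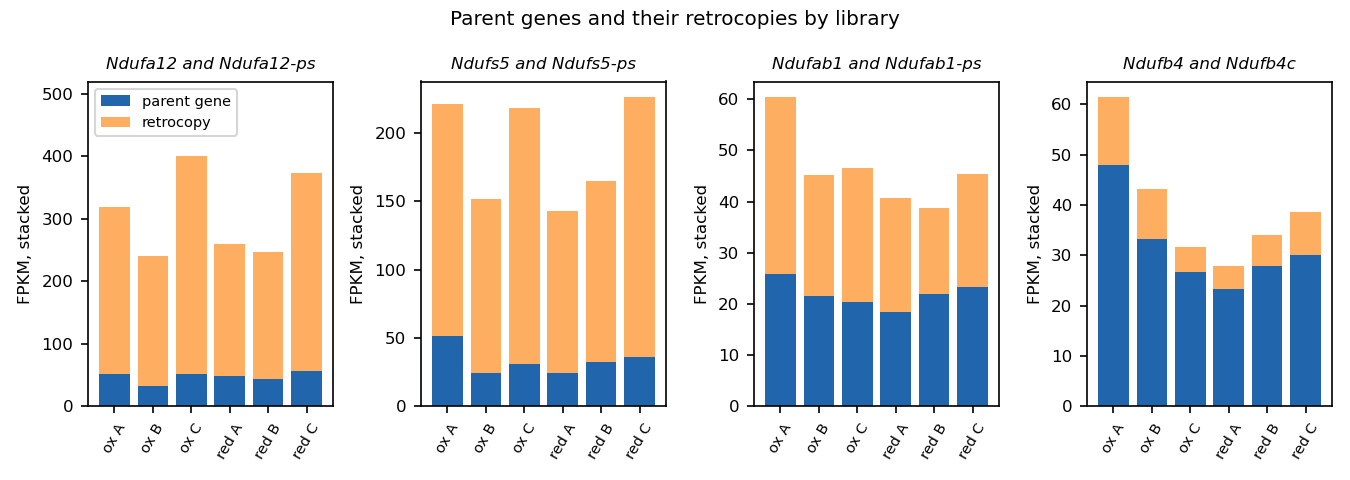
Stacked bars give FPKM (vertical axes, from 0) of a parent gene (blue) and its retrocopy (orange) in oxidized A to C (left) and reduced A, B and C (right). The copy makes up 81.3% to 86.9% of the Ndufa12 pair and 76.9% to 85.8% of the Ndufs5 pair, and 15.5% to 23.0% of the Ndufb4 pair.

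Many Nduf transcripts are short, and short transcripts of all kinds had higher levels in oxidized A. The median longest transcript was 1112 bases for the members and 2922 bases for all genes tested. Within population A the median log2 difference of all genes was 0.45 below 500 bases, 0.33 from 500 to under 800, 0.26 from 800 to under 1200, 0.10 from 1200 to under 2000, 0.08 from 2000 to under 4000 and -0.01 from 4000 bases. The members of the same length classes, 3, 10, 12, 12, 9 and 2 in number, had medians of 0.72, 0.55, 0.40, 0.37, 0.38 and 0.76 in that population. Within population B the medians of all genes lay between 0.10 and 0.20 in every class, and within population C between -0.08 and 0.07. With this length trend removed from each library, the median of the members was 0.12 with 33 of 48 positive, where the median of all genes was 0.00. Median-ratio scaling and quantile normalization, which do not use length, gave members' medians of 0.12 and 0.13, with medians of all genes of 0.00 and -0.01. The part of transcript length in the members' difference was not tested beyond this.

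**Figure D5:**
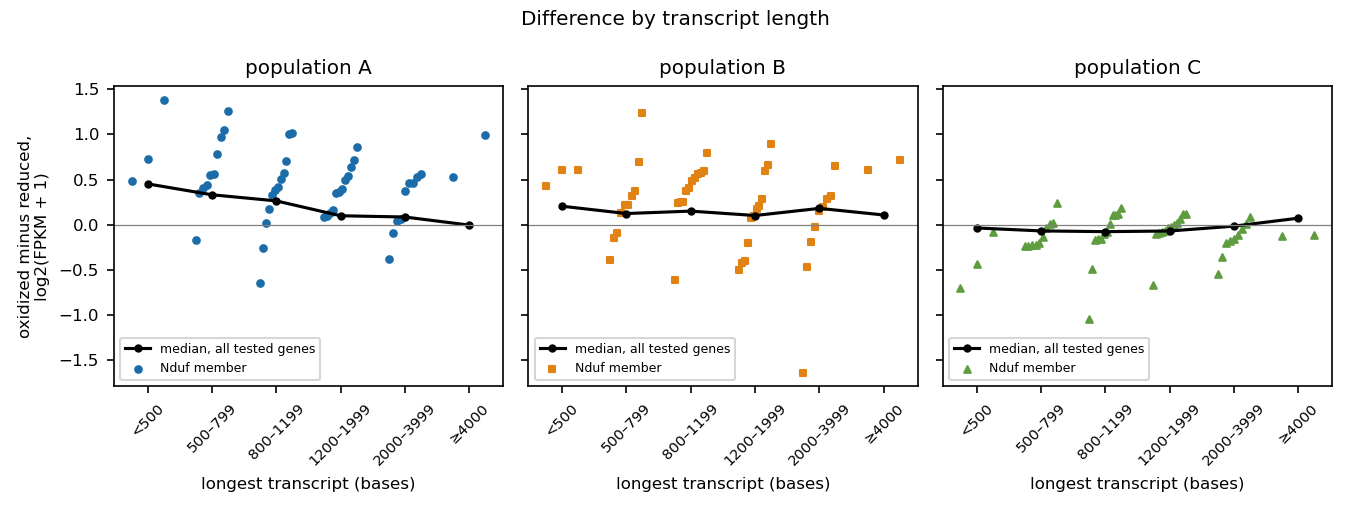
The oxidized minus reduced log2 difference (vertical axis) is plotted against classes of longest transcript length in bases (horizontal axis) for populations A, B and C, with the median of all tested genes as a line and each Nduf member as a point. In population A the line runs from 0.45 in the shortest class to -0.01 in the longest, and most members lie above it.

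The other genes of the respiratory chain were taken from lists chosen by complex, and none of their members passed the test with limma. In the authors' deposited table, q was under 0.05 for 2 of the 7 mitochondrially encoded ND subunits, mt-Nd3 (0.0138) and mt-Nd2 (0.0390), and for 1 of 9 complex III genes, Uqcrc2 (0.00161). The same held for 5.51% of all genes tested. The 7 mitochondrially encoded ND subunits, which form the membrane part of complex I, summed to 1277, 1144 and 674 FPKM in oxidized A to C, and to 498, 790 and 668 FPKM in reduced A to C. The ratio was 2.57 in A, 1.45 in B and 1.01 in C, the same order as for the nuclear subunits. The most abundant, mt-Nd1, had 544, 511 and 246 FPKM in oxidized A to C, and 165, 268 and 242 FPKM in reduced A to C (log2 difference 0.89, SE 0.32, limma adjusted p = 0.190). Only mt-Nd4l had a negative log2 difference, -0.47, and that of mt-Nd4 was 0.07. Within populations, mt-Nd4 was lower in oxidized B (153 FPKM) than in reduced B (204 FPKM). mt-Nd3 was lower in oxidized C (27.5 FPKM) than in reduced C (33.6 FPKM).

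Complexes III, IV and V had positive medians, as complex I did, and that of complex II was near 0. Their median log2 differences were 0.40 over 9 genes, 0.25 over 10 and 0.30 over 15, against 0.04 over 8 genes of complex II, and these differences between lists were not tested. The complex II list also holds the assembly factors Sdhaf1 to Sdhaf4, whereas the lists of complexes III, IV and V hold subunits only, so the sets are not alike. The complex II subunits Sdha, Sdhb, Sdhc and Sdhd had log2 differences of 0.01, 0.13, 0.74 and -0.18. The oxidized to reduced ratio of the summed levels was 1.27, 1.29 and 1.14 for complexes III, IV and V, and 0.995 for complex II. In population C each of these 4 sums had a ratio between 0.956 and 0.977. The most abundant genes were Uqcr11 in complex III, Cox8a in complex IV, Atp5b in complex V and Sdhd in complex II, with log2 differences of 0.47, 0.22, 0.24 and -0.18. Uqcrc2, a core subunit of complex III named after its values were seen, had 94.3, 70.3 and 21.2 FPKM in oxidized A to C, and 17.3, 17.7 and 20.2 FPKM in reduced A to C (log2 difference 1.46, SE 0.46, limma adjusted p = 0.151). Oxidized A and B stood above the other 4 libraries, all of which lay close together.

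Assembly factors of complex I without an Nduf name showed no common direction: 6 of 13 tested were positive, with a median of -0.01. Dmac1, a factor for the distal membrane arm and the most abundant of them, had 78.2, 59.8 and 52.2 FPKM in oxidized A to C, and 36.7, 41.4 and 44.8 FPKM in reduced A to C. Its groups did not overlap (log2 difference 0.60, SE 0.19, limma adjusted p = 0.146). Sfxn4 was below 1 FPKM and was not tested. Of 11 listed regulators of respiratory genes, Ppargc1a, Ppargc1b and Esrrb averaged below 1 FPKM and were not tested. Of the 8 regulators tested, 3 were positive, with a median of -0.12. The most abundant, Tfam, which packages mitochondrial DNA, averaged 19.6 ± 2.86 FPKM in oxidized against 22.8 ± 3.09 FPKM in reduced cells (SD, n = 3 each). Nrf1, a transcription factor for respiratory genes, had 7.76, 8.38 and 7.37 FPKM in oxidized A to C, and 9.23, 8.92 and 8.54 FPKM in reduced A to C. Every reduced library was above every oxidized one, by a log2 difference of -0.16 (SE 0.14, limma adjusted p = 0.552), an order found in 8.81% of all genes. In the other direction Gabpb1, Yy1 and Myc, 3 of the 8 regulators, had every oxidized library above every reduced one, as had 16.2% of all genes.

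Promoters of 40 of the 48 members were matched in RefSeq (GRCm38.p6), from 250 bases before to 50 bases after each start. The Nrf1 recognition sequence, GCGC followed by any base and TGCGC, was searched on both strands and was present in 9 of the 40 (22.5%), against 1402 of 27025 genes (5.19%). These 27025 genes were not limited to the 12191 tested, whereas all 48 members averaged at least 1 FPKM. The share among the tested genes was not computed. Of the 9, 7 (Ndufa5, Ndufa8, Ndufa11, Ndufb4, Ndufs5, Ndufs6 and Ndufaf4) held it before a RefSeq start. Ndufa6 and Ndufaf5 held it after the start. Shown are matches, in capitals, of 2 of the supernumerary subunits with the largest positive difference (Ndufa8 and Ndufa5) and of the member with the lowest difference (Ndufaf4).
Ndufa8: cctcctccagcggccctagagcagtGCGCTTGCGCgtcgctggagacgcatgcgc
Ndufa5: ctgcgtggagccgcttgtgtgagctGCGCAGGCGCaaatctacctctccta
Ndufaf4: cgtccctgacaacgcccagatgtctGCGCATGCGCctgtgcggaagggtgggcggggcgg
The match of Ndufa8 begins 30 bases before a RefSeq start (chr2:36049339-36049393, minus strand). That of Ndufa5 begins 26 bases before a RefSeq start and 190 bases before another (chr6:24527691-24527741, minus strand). That of Ndufaf4 begins 113 bases before a RefSeq start (chr4:24897945-24898004, plus strand). In GENCODE vM21, Ndufa8, Ndufa5 and Ndufs6 begin further upstream, at chr2:36049406, chr6:24528013 and chr13:73328542 (minus strand). By that annotation the matches of Ndufa8, Ndufa5 and Ndufs6 lie inside the genes. The log2 differences of Ndufa8, Ndufa5 and Ndufaf4 were 0.46, 0.49 and -0.86. Those of all 9 genes ran from -0.86 to 0.49, so members that hold the motif did not share a direction. The match of Ndufa5 is on the opposite strand, so its capitals are the reverse complement of the motif, and that of Ndufaf4 reads the same on both strands. A match says only that these letters are present.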

How the data were processed

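Poly(A) RNA of 6 libraries, 3 of oxidized and 3 of reduced cells, was analysed. A deposited table of 31265 genes holds the authors' FPKM for every gene in every library, per the file headers, together with their fold ratio, log2 fold and p-value and q-value columns, of which the p-values and q-values of members and listed genes, and the q-values of all genes tested, were read. Per the submitters' processing notes, the tools were FastQC, cutadapt, HISAT2, StringTie and edgeR with build mm10, and the strand and multi-mapping settings are not given in the sources used here. Column names give the population letter and not the GEO replicate number, so libraries are named by letter.

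Since the deposited values are FPKM, a count test was not applied. Analysis used log2(FPKM + 1), a scale that understates the change of low genes, for genes averaging 1 FPKM or more. The group was the only term of the limma fit (version 3.58.1, R 4.3.3, eBayes with a mean-variance trend), with Benjamini-Hochberg adjustment over 12191 genes and a two-sided threshold of 0.05. The fit was checked on simulated data, in which libraries were independent, without populations, and planted changes were larger than those of any member in the main fit. That check therefore does not cover the differences among these populations or changes as small as those of the members. All 48 members passed the filter. Estimated depth, read from the smallest steps in the FPKM values, sets the precision of low genes, and counting error is larger in population C.

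The members and lists were chosen with earlier results of these data known. Named were the core subunits (1 is not reported here), all Nduf assembly factors, Ndufa4, Ndufa4l2, Ndufab1, and of the supernumerary subunits the 4 most abundant, the 4 with the largest positive and the 4 with the lowest difference (3 of them negative), plus the most abundant gene of each comparison list. Other genes named were chosen after their values were seen. These were Ndufc1, Ndufv3, Ndufa9, Ndufs5, Nrf1, Gabpb1, Yy1, Uqcrc2, mt-Nd2, mt-Nd3, mt-Nd4, mt-Nd4l and those with copies or a motif.

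Each population gave both sorts (series' design text), so letters pair libraries. The correlation of their deviations from group means across genes was -0.06 in A, 0.07 in B and 0.20 in C. Between libraries of different letters it ran from -0.17 to 0.13, so in A and B the paired libraries were no more alike than some unpaired ones. Alternatives were the population as a block, a pseudocount of 0.1, no filter, a 5 FPKM minimum mean, median-ratio and quantile scaling, no trend, a 2-fold minimum change, omission of each library, omission of oxidized A and B, and removing a length trend, the last chosen after seeing the data. Positions, lengths and shared sequence (stretches of 31 bases) came from GENCODE vM21, matched for 31182 of the 31265 genes, and promoters from RefSeq GRCm38.p6.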

Additional observations from a re-analysis of the deposited data

How the results depend on the processing

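No member passed the threshold under any alternative except without oxidized C, where 2 did, Ndufa3 (log2 difference 1.01, limma adjusted p = 0.0354) and Ndufv1 (0.68, adjusted p = 0.0346). Leaving out each library gave 0 to 2 members called. Of all genes, 97 passed, against 4 with the population as a replicate block, 1 with no filter, 4 without oxidized A and B, and 3 to 1185 when each library was left out. The block left every member uncalled (adjusted p 0.177 to 0.962). The median log2 difference of the members lay between 0.11 and 0.32, with 31 to 41 positive. Signs turned for Ndufa12 (0.083), Ndufa6 (0.015), Ndufab1 (-0.049), Ndufaf2 (-0.026) and Ndufv2 (0.025) without oxidized A and B, for Ndufab1 (-0.0046) and Ndufb9 (-0.071) under median-ratio scaling, for Ndufab1 (-0.021) and Ndufb9 (-0.11) under quantile normalization, and for Ndufab1 (-0.015) and Ndufb9 (-0.12) with the length trend removed. Leaving out each library turned 11 of the 28 named members: Ndufa12 lay between -0.25 and 0.071, Ndufa4l2 between -0.45 and 0.46, Ndufa6 between -0.21 and 0.14, Ndufab1 between -0.012 and 0.15, Ndufaf2 between -0.036 and 0.31, Ndufaf5 between -0.15 and 0.079, Ndufaf8 between -0.033 and 0.51, Ndufb6 between -0.016 and 0.28, Ndufb9 between -0.14 and 0.18, Ndufs4 between -0.44 and 0.0097, and Ndufv2 between -0.24 and 0.023. The cause was not tested.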

Other observations

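The row Ndufb1-ps, left out by its name, is annotated in GENCODE vM21 as a long noncoding RNA from a bidirectional promoter and shares 10.0% of its sequence stretches with Cpsf2. It had 30.8, 20.2 and 16.2 FPKM in oxidized A to C, and 10.3, 20.8 and 14.7 FPKM in reduced A to C (log2 difference 0.53, limma adjusted p = 0.348). Myc, a regulator of metabolism and growth and named after its values were seen, had 18.7, 15.7 and 7.59 FPKM in oxidized A to C, and 4.44, 2.95 and 5.22 FPKM in reduced A to C. Its groups did not overlap (log2 difference 1.47, SE 0.31, limma adjusted p = 0.0780), with the smallest gap in population C. In the authors' deposited table its q was 1.67e-04, the only regulator of 8 with a q under 0.05, against 5.51% of all genes tested.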
